A study of Mus musculus with 6 samples.

Results

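The genes described here are 10 members of the Jak-Stat pathway of mammary cells: the kinase genes Jak1 and Jak2, the transcription factor genes Stat3, Stat5a, Stat5b and Stat6, and the feedback inhibitor genes Cish, Socs1, Socs2 and Socs3. They were taken by symbol from the platform annotation of an Affymetrix mouse array, which gave 26 probe sets with exactly 1 of these symbols among the 45101 probe sets of the table. Where a gene had several probe sets, the brightest by its mean of all 6 arrays stood for it, and the others were set beside it. A filter that removed the 25% of probe sets with the lowest means kept 22 of the 26 probe sets and 9 of the 10 genes, among 15027 genes tested in all, and Socs1 is therefore given as values only.

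RNA came from breast tumours of MMTV-Wnt-1 mice. Their transgene places Wnt1 under the promoter of the mouse mammary tumour virus, which is active in mammary epithelium, and both groups carry it. Cells of 3 mice were separated by fluorescence-activated sorting. In each mouse, the population labelled tumorigenic had been gated as CD24+Thy+CD45-, and the population labelled nontumorigenic was the cells labelled as outside that gate, a label that does not settle whether it also covers CD45+ cells. This gave 3 arrays against 3, with 1 array of each population per mouse, and no age, strain background or drug treatment is stated in the labels.

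Cytokine and hormone receptors without a kinase domain of their own signal through bound Jak kinases, which phosphorylate Stat proteins. The Stat proteins then pair, enter the nucleus and bind DNA at sites called GAS. In the mammary gland, prolactin acts through Jak2 and Stat5 to drive alveolar differentiation and milk protein genes, Stat3 drives involution after weaning, and interleukin-4 and interleukin-13 act through Stat6. Cish and the Socs genes are themselves transcribed in response to Stat proteins and damp the receptors that activated them. Transcript levels say nothing of the phosphorylation by which Jak and Stat proteins are switched on.

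Letters that match the GAS motif were searched for in the members' promoters. The windows printed are those of Cish, a classical Stat5 target, and Socs3, a classical Stat3 target, the only members with a match. RefSeq promoter windows of assembly GRCm38.p6, running from 250 bases before to 50 bases after an annotated start, were found for 9 of the 10 genes, in 11 windows. Of the 11 windows, 2 held a match, those of Cish and Socs3, and the others held none. Capitals mark the motif TTCNNNGAA, which reads the same on both strands.
Cish, chr9:107296409-107296708, plus strand: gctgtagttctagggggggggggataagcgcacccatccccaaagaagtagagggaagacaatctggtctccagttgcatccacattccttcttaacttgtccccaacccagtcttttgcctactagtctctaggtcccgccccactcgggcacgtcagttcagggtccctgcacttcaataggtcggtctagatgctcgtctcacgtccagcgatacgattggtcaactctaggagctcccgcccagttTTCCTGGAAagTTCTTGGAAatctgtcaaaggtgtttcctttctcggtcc
Socs3, chr11:117969317-117969616, minus strand: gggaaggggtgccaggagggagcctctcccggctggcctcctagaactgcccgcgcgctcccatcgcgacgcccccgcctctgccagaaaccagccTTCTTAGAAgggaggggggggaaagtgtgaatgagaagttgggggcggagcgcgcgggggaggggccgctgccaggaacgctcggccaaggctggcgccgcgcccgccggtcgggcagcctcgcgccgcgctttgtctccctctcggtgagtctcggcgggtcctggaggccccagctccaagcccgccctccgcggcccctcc
Cish held 2 matches, the motif TTCCTGGAA beginning at the annotated start and TTCTTGGAA 11 bases after it, and they do not overlap each other. Socs3 held 1 match, TTCTTAGAA, which began 154 bases before the start. Of 32851 windows of the same length, 8.3% held at least 1 match and 0.457% held at least 2. A match describes letters in a window and is no evidence of binding in these cells.

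The arrays themselves differed in ways that bear on every result below. Array medians were 4.36 to 4.4 on the log2 scale. The 18S control at its 3' end read 6.32 to 7.76 under the tumorigenic label and 8.52 to 8.97 under the nontumorigenic label. For the Gapdh control, the 3' minus 5' value was 2.62 to 6.60 log2 units under the tumorigenic label, highest in mouse 2, and 2.41 to 3.78 under the nontumorigenic label. Ptprc, which encodes the CD45 that the gate excluded, averaged 7.26 ± 3.23 under the tumorigenic label and 2.81 ± 0.68 under the nontumorigenic label (SD, n = 3 each), against the direction of the gate. Cd24a, which the gate selected for, read 11.85, 12.34 and 12.84 in labelled tumorigenic mice 1, 2 and 3, against 12.84 to 12.99 under the nontumorigenic label, lower in each mouse at a difference of -0.55, with all 3 of its probe sets negative. Thy1, also selected for, differed by 0.24, with overlapping ranges. Directions below are therefore between labels. The log2 of the summed level of 12 macrophage and pan-leukocyte markers was 14.69, 13.43 and 9.85 in labelled tumorigenic mice 1, 2 and 3, against 8.88 to 9.23 in the arrays labelled nontumorigenic, and 10 of the 12 had populations that did not overlap with the tumorigenic label above, against 6.90% of all genes. Among 8 endothelial markers, 7 did not overlap in the same direction, with summed levels of 10.86, 11.29 and 10.53 in labelled tumorigenic mice 1, 2 and 3, against 8.82 to 9.74 under the nontumorigenic label. The sums were 9.21, 11.73 and 9.60 under the tumorigenic label and 7.89 to 9.19 under the nontumorigenic label for 5 adipocyte markers, all positive. For 8 T and NK cell markers they were 11.68, 8.29 and 6.58 in labelled tumorigenic mice 1, 2 and 3, against 7.78 to 8.14 under the nontumorigenic label. The log2 of the summed level of 8 luminal epithelial markers was 10.33, 12.94 and 12.35 in labelled tumorigenic mice 1, 2 and 3, against 13.44 to 13.66 under the nontumorigenic label, with all 8 lower on average under the tumorigenic label. Among these markers, Ptprc, Adgre1, Gzmb and Adipoq averaged 2.81, 2.93, 2.79 and 2.55 under the nontumorigenic label, below the filter at log2 2.98. They passed it only through the labelled tumorigenic arrays, and Ptprc is among the 10 leukocyte markers that did not overlap. In bulk samples, fewer cells of a type and less RNA per cell cannot be told apart.

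Transcripts of the 9 genes tested did not separate the populations past the threshold. Stat5a, with the smallest p of the 9 on the brightest probe sets, read lower under the tumorigenic label in each of the 3 mice. Stat3 also read lower and Socs3 higher in each of the 3 mice, by amounts within the error of the fit, while Jak1, Jak2, Stat5b, Stat6, Cish and Socs2 differed in sign between mice. Of the 9 genes, 0 had an adjusted p below 0.05 (limma, Benjamini-Hochberg over 15027 genes), where 0% of all genes did, and their adjusted p lay between 0.522 and 0.996. At an unadjusted p below 0.05 there was 1 member, Stat5a, against 8.50% of all genes. Differences had the same sign in all 3 mice in 3 members, against 30.2% of all genes. They were positive in 5 members, against 50.7% of all genes, and negative in 4, with a median of 0.136 log2 units beside 0.005 over all genes. With mouse 1, 2 or 3 left out of the tumorigenic label, the median was -0.06, -0.03 or 0.21. The populations did not overlap in 2 members, against 12.5% of all genes. No member differed by 1 log2 unit or more, which 6.85% of all genes did.

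**Figure D1:**
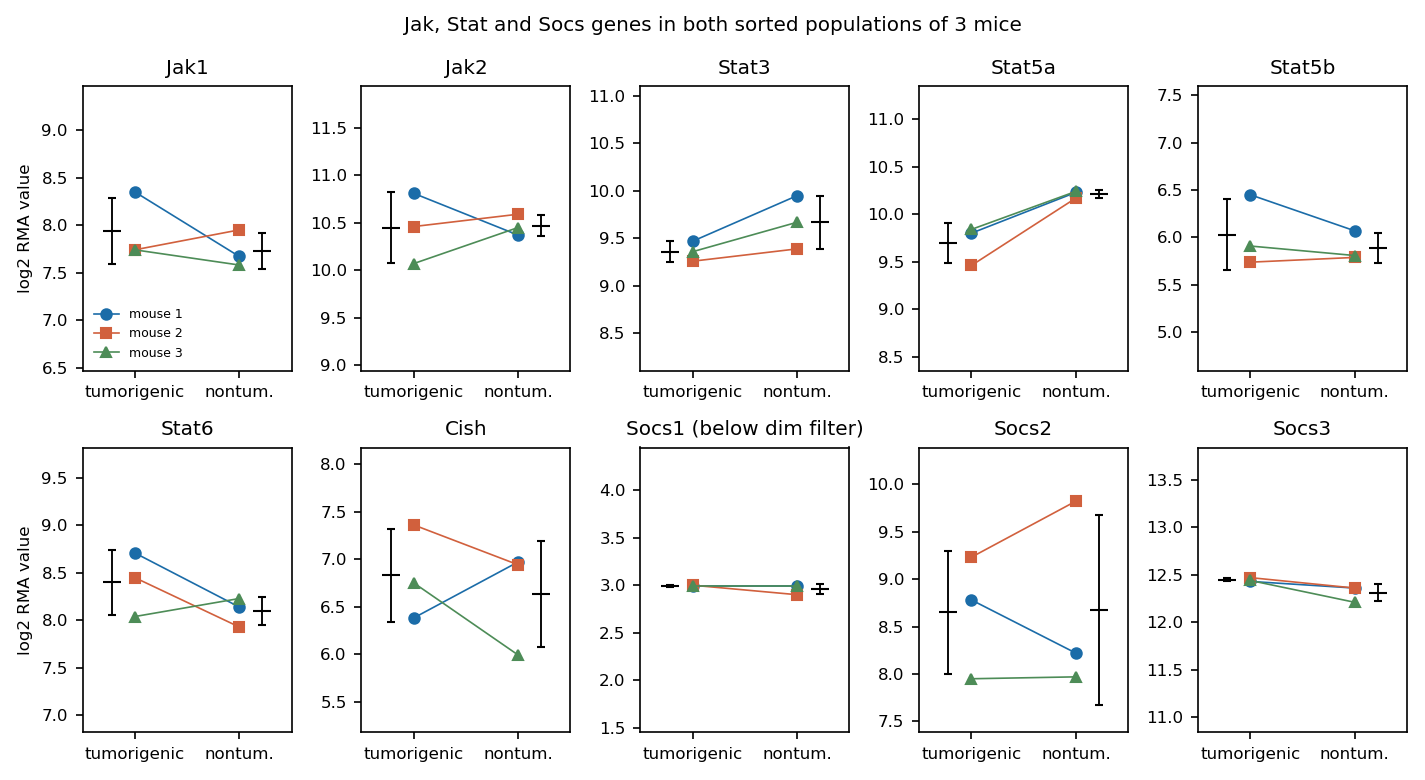
Log2 RMA values of the 10 genes in every array, with the population labelled tumorigenic at the left of each panel and the one labelled nontumorigenic (nontum.) at the right. Coloured lines join the arrays of a mouse, black marks are mean and SD over 3 arrays, and each panel spans 3 log2 units on an axis that does not start at 0. Stat5a lay lower in every labelled tumorigenic array, and Socs2 spread more between mice than between populations.

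Among the kinases, Jak1 associates with receptors of the gp130, interferon and interleukin-4 families. Its brightest probe set read 8.35, 7.74 and 7.74 in labelled tumorigenic mice 1, 2 and 3, against 7.67, 7.95 and 7.58 in the population labelled nontumorigenic. The ranges overlapped, with the labelled tumorigenic array of mouse 1 above the rest. The difference was 0.21 (95% interval -0.35 to 0.77, limma adjusted p = 0.826), and without both arrays of mouse 1 it was -0.023. The other probe sets of Jak1 also had positive mean differences, 0.71 and 0.18. The one with 0.71 read 8.27, 8.20 and 7.95 under the tumorigenic label and 7.33, 7.71 and 7.24 under the nontumorigenic label. There the populations did not overlap, which the brightest probe set did not show. In the limma fit over all probe sets its unadjusted p was 0.0111 (SE 0.20, adjusted p = 0.564). That was smaller than the 0.0236 of the Stat5a probe set in the same fit (adjusted p = 0.613). The rule for choosing a probe set thus decides how far apart the Jak1 values lie.

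Jak2 carries the signals of the prolactin, growth hormone and erythropoietin receptors. It read 10.81, 10.46 and 10.07 in labelled tumorigenic mice 1, 2 and 3, against 10.37, 10.59 and 10.45 in the arrays labelled nontumorigenic. The labelled tumorigenic arrays spread on both sides of the others. The difference was -0.02 (95% interval -0.57 to 0.53, limma adjusted p = 0.985), so that a change in either direction of the size seen for Stat5a lies inside the interval. Without the tumorigenic-labelled array of mouse 3 it was 0.167, and without the labelled nontumorigenic array of mouse 2 it was 0.039. A dimmer Jak2 probe set read 4.26, 4.72 and 4.26 in labelled tumorigenic mice 1, 2 and 3, against 4.21, 3.87 and 4.08 under the nontumorigenic label, with a positive difference in all 3 mice, and the probe sets of Jak2 therefore disagreed in sign.

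Stat5a encodes the Stat5 form that prolactin signalling chiefly uses in mammary epithelium. It read 9.80, 9.46 and 9.84 in labelled tumorigenic mice 1, 2 and 3, against 10.23, 10.17 and 10.24 in the population labelled nontumorigenic. All 3 labelled tumorigenic arrays lay below the lowest of the others, and the array of mouse 2 was the lowest. The means were 9.70 ± 0.21 under the tumorigenic label and 10.21 ± 0.04 under the nontumorigenic label (SD, n = 3 each), a difference of -0.51 (SE 0.17, 95% interval -0.92 to -0.10) or a 0.70-fold level, at an unadjusted p of 0.0221 and a limma adjusted p = 0.522. By p it ranked 631 of 15027 genes, so many other genes separated the labels at least as well. Populations did not overlap, with the tumorigenic label below, in 1 member, Stat5a, and in 5.59% of all genes. The other Stat5a probe set lay below the filter, at 2.12 to 2.84 over the 6 arrays. The luminal markers that read lower in the same arrays are given above, and their part in the Stat5a difference was not tested.

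Stat5b, the close paralogue that growth hormone signalling uses in liver, is the neighbour of Stat5a on chromosome 11, with Stat3 on the far side of Stat5a. It read 6.45, 5.74 and 5.91 in labelled tumorigenic mice 1, 2 and 3, against 6.07, 5.79 and 5.81 in the arrays labelled nontumorigenic. The labelled tumorigenic array of mouse 1 stood above the others, which lay close together. Its difference was 0.15 (95% interval -0.42 to 0.71, limma adjusted p = 0.886), and -0.061 without that array. Whether Stat5a and Stat5b differed from each other in their response was not tested. Because the genes are near-identical in much of their coding sequence, some signal could be shared between their probe sets.

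Stat3, the factor of gp130 cytokines, read 9.47, 9.26 and 9.36 in labelled tumorigenic mice 1, 2 and 3, against 9.95, 9.39 and 9.67 in the population labelled nontumorigenic. Within each mouse the labelled tumorigenic array was the lower, by 0.47, 0.14 and 0.32 log2 units, yet the ranges overlapped. The difference was -0.31 (95% interval -0.78 to 0.17, limma adjusted p = 0.705), and -0.171 without the labelled nontumorigenic array of mouse 1. All 3 Stat3 probe sets above the filter had negative mean differences, and on the 2 dimmer ones mouse 3 was positive, at 0.02 and 0.27.

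Stat6 read 8.71, 8.45 and 8.04 in labelled tumorigenic mice 1, 2 and 3, against 8.14, 7.93 and 8.23 in the arrays labelled nontumorigenic. On this brightest probe set, mice 1 and 2 were higher under the tumorigenic label and mouse 3 was not. The difference was 0.30 (95% interval -0.23 to 0.84, limma adjusted p = 0.742), or 0.15 without the tumorigenic-labelled array of mouse 1 and 0.482 without that of mouse 3. A dimmer Stat6 probe set was positive in all 3 mice, by 0.16, 0.03 and 0.40, with a mean difference of 0.20. Its largest difference was in mouse 3, so the 2 probe sets did not share the order of the mice. The labelled tumorigenic arrays of mice 1 and 2 are also those with the highest leukocyte marker levels, at 14.69 and 13.43, with 9.85 in mouse 3. Their part in the Stat6 values was not tested.

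**Figure D2:**
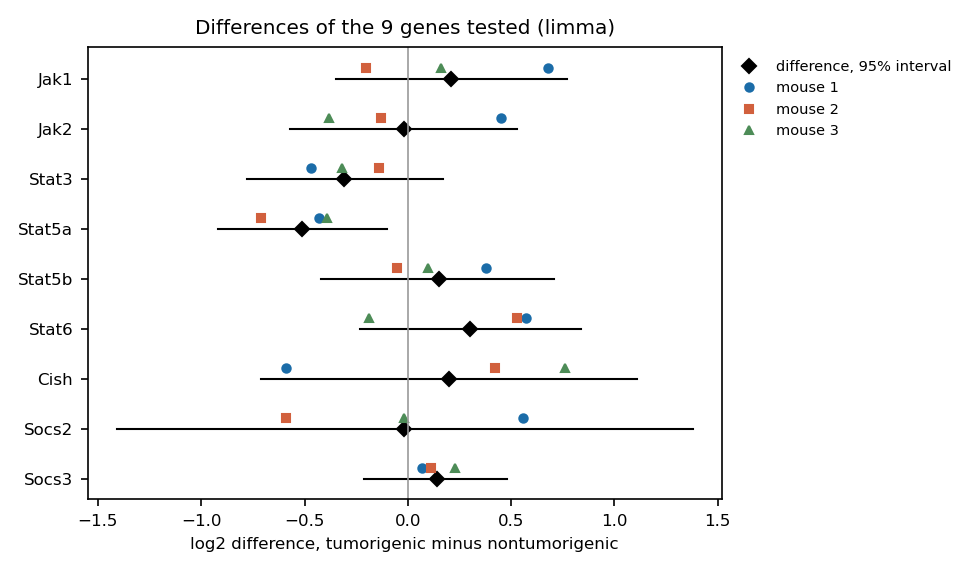
Log2 differences, tumorigenic minus nontumorigenic, of the 9 genes tested. Diamonds and bars are the limma estimate and its 95% interval, and coloured marks are the differences within each mouse. The interval of Stat5a, -0.92 to -0.10, was the only one of the 9 that left out 0, before any adjustment for the number of genes tested.

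Among the inhibitors, Cish encodes a protein that blocks docking sites on receptors that signal through Stat5, and its promoter above holds the pair of GAS motifs. It read 6.38, 7.36 and 6.75 in labelled tumorigenic mice 1, 2 and 3, against 6.97, 6.94 and 5.99 in the population labelled nontumorigenic. The labelled tumorigenic array was lower in mouse 1 and higher in mice 2 and 3. The difference was 0.20 (95% interval -0.71 to 1.11, limma adjusted p = 0.907), an interval that reaches well past the size of the Stat5a difference on both sides, and it changed sign, to -0.124, without the labelled nontumorigenic array of mouse 3, to -0.066 without the tumorigenic-labelled array of mouse 2, and to -0.084 without both arrays of mouse 3. Cish was measured by 1 probe set.

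Socs2, which restrains growth hormone signalling and is another Stat5 target, varied mainly between mice. Its brightest probe set read 8.78, 9.23 and 7.95 in labelled tumorigenic mice 1, 2 and 3, against 8.22, 9.82 and 7.97 in the arrays labelled nontumorigenic. Mouse 2 was the highest in both populations and mouse 3 the lowest in both. The mean of both arrays of a mouse spanned 1.56 log2 units over the 3 mice, a span that 95.8% of all genes did not exceed, while the populations differed by -0.02 (95% interval -1.41 to 1.38, limma adjusted p = 0.996). All 6 Socs2 probe sets had mouse 2 as the highest and mouse 3 as the lowest among the labelled tumorigenic arrays. Among the labelled nontumorigenic ones, 5 of the 6 had mouse 2 highest, while 3 had mouse 3 lowest and 3 had mouse 1 lowest. Probe sets of a gene share the RNA of an array, so this describes these mice and is no repeat measurement.

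The Socs2 probe sets did not give the same difference between populations. That of the brightest was -0.02, but 0.333 with mouse 3 left out of the tumorigenic label and 0.556 with mouse 2 left out of the nontumorigenic one, and the other 5 were positive, from 0.15 to 0.73. The second brightest read 8.16, 8.64 and 7.58 under the tumorigenic label, against 6.87, 8.08 and 7.41 under the nontumorigenic label, a difference of 0.68 that was positive in all 3 mice (limma over all probe sets, adjusted p = 0.735). The brightest carries the suffix that the array maker gives to probe sets shared between transcripts.

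Socs3, the inhibitor of gp130 receptors, read 12.43, 12.47 and 12.44 in labelled tumorigenic mice 1, 2 and 3, against 12.36, 12.36 and 12.21 in the population labelled nontumorigenic. All labelled tumorigenic arrays were above all others, by a narrow margin near the upper end of the array's range. The difference was 0.14 (95% interval -0.21 to 0.48, limma adjusted p = 0.816), and 0.086 without the labelled nontumorigenic array of mouse 3. Populations did not overlap, with the tumorigenic label above, in 1 member, Socs3, and in 6.90% of all genes. The second Socs3 probe set gave 0.31, and both carry the suffix for probes that may bind other transcripts.

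The remaining Socs3 probe set, which has no such suffix, read 7.77, 8.58 and 8.51 under the tumorigenic label, against 7.49, 7.93 and 7.21 under the nontumorigenic label. It was higher in each mouse, by 0.28, 0.65 and 1.30, although the ranges overlapped. Its difference of 0.74 (SE 0.30) had an unadjusted p of 0.0484 and an adjusted p = 0.647 in the limma fit over all probe sets. The direction was thus shared by all 3 probe sets in all 3 mice, and the size depended on the probe set.

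**Figure D3:**
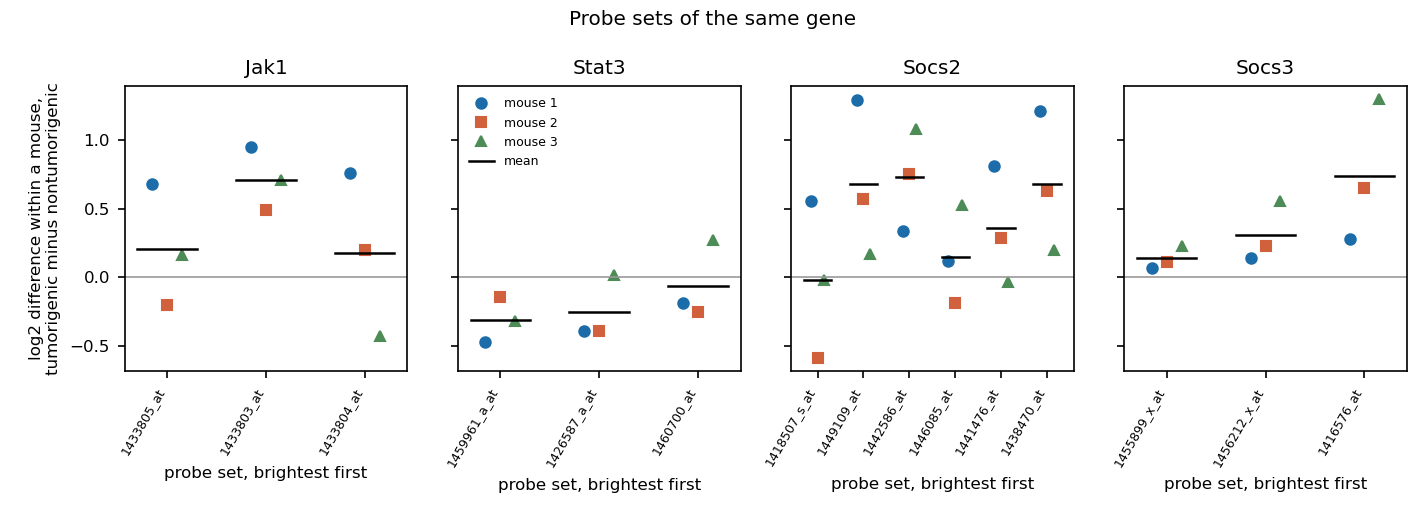
Log2 differences within each mouse, tumorigenic minus nontumorigenic, for every probe set above the filter of Jak1, Stat3, Socs2 and Socs3, ordered from brightest to dimmest. Coloured marks are mice and black bars their mean. All marks of Socs3 lie above 0, whereas the 6 probe sets of Socs2 have means from -0.02 to 0.73.

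Socs1, the inhibitor induced by interferon gamma, read 2.99, 3.00 and 2.99 in labelled tumorigenic mice 1, 2 and 3, against 2.99, 2.90 and 2.99 in the arrays labelled nontumorigenic. These values lay at the filter, which stood at log2 2.98, and no difference was readable at this signal.

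For Stat5a and for Cish, Socs2 and Socs3, genes of like pattern were sought by the root mean square distance between values centred on each gene's mean, over the 6 arrays and 15018 other genes. Nearest to Stat5a were Zmat3, Smarca5 and Mettl6, at 0.073, 0.079 and 0.082 log2 units. Nearest to Cish were Sod2, Tnfrsf10b and Wdr53, at 0.110 to 0.132. Socs2 had no neighbour as near: Xaf1 lay at 0.204, Fkbp5 at 0.241 and Zfp771 at 0.252. The distance is not scaled by spread, and Socs2 had an SD over the arrays of 0.76, against 0.31 for Stat5a and 0.48 for Cish. Socs3, whose chosen probe set hardly varied, was nearest to Zfp180, Ykt6 and Luzp1, at 0.018 to 0.040. With 6 arrays and this many genes, small distances arise readily, and the measure is a description.

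The other genes of the pathway were read from lists of receptors, ligands, kinases, inhibitors and targets. Of 80 such genes tested, 0 passed the adjusted threshold in either direction (limma), 15 (18.8%) had an unadjusted p below 0.05, against 8.50% of all genes, and the adjusted p of the 80 ran from 0.247 to 0.983. Populations did not overlap in 9 genes with the tumorigenic label above and 9 with it below, against 6.90% and 5.59% of all genes. Receptors made up 6 of the 9 above, and Stat5 targets 7 of the 9 below. For 65 of the 80 genes, leaving out 1 array turned the sign or moved the difference by over 1.5 times, and for 38 of them the labelled tumorigenic array of mouse 1 was such an array, by an alternative added after seeing the data.

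Receptors had positive differences in 19 of 23 genes (82.6%), against 50.7% of all genes, and 6 of the 23 (26.1%) did not overlap with the tumorigenic label above, against 6.90% of all genes. Of the 23, 0 passed the adjusted threshold (limma) and 5 had an unadjusted p below 0.05. Csf2rb, the shared beta chain of the interleukin-3, interleukin-5 and granulocyte-macrophage colony-stimulating factor receptors, read 9.33, 9.08 and 7.54 in labelled tumorigenic mice 1, 2 and 3, against 6.71, 4.81 and 4.08 in the other population. All labelled tumorigenic arrays were above the rest, with a difference of 3.45 (SE 0.79, limma adjusted p = 0.387). In the same list, the leptin receptor Lepr differed by 2.03 from a dim level and Csf2ra by 1.46, or 0.79 without the tumorigenic-labelled array of mouse 1, and the list of 5 had a median of 1.46, which became 0.79 without the same array. Probe sets ran from 1.08 to 3.45 for Csf2rb, from 0.24 to 2.03 for Lepr and from 0.23 to 1.46 for Csf2ra. The leukocyte, endothelial and adipocyte markers were also higher on average under the tumorigenic label, with the sums given above, and their part in the values of these and the following receptors was not tested.

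Of the 6 gp130 family receptors, 5 had positive differences, with a median of 0.65. Lifr, the receptor of leukaemia inhibitory factor, read 10.32, 10 and 10.20 in labelled tumorigenic mice 1, 2 and 3, against 9.08, 9.79 and 9.15 under the nontumorigenic label. The populations did not overlap, its difference was 0.84 (SE 0.24, limma adjusted p = 0.465), and all 3 Lifr probe sets were positive. Il6st, which encodes gp130 itself, read 10.27, 10.06 and 9.89 under the tumorigenic label, against 9.57, 9.82 and 9.47 under the nontumorigenic label, and differed by 0.45 (SE 0.18, limma adjusted p = 0.584), but its 3 probe sets ranged from -0.26 to 0.45. Il27ra differed by 1.05, or 0.58 without the tumorigenic-labelled array of mouse 1.

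The interleukin-4 receptor chain Il4ra, which activates Stat6, read 8.18, 8.58 and 6.69 in labelled tumorigenic mice 1, 2 and 3, against 5.88, 6.40 and 6.01 under the nontumorigenic label. It differed by 1.72 (SE 0.50, limma adjusted p = 0.474), with its probe sets between -0.09 and 1.72. Its list of 6 had a median of 0.56, which became 0.15 when mouse 1 was left out of the tumorigenic label. Among lymphocyte receptors in the list, Il21r differed by 0.29, with 0.97 within mouse 1, and by -0.05 without the tumorigenic-labelled array of mouse 1. Il15ra differed by -0.18, with -0.82 within mouse 1, and by 0.11 without that array. Il7r and Il2rb had the smaller p among the lymphocyte receptors. Il7r read 7.17, 4.92 and 2.39 in labelled tumorigenic mice 1, 2 and 3, against 2.57, 3.14 and 2.48 under the nontumorigenic label, whose mean of 2.73 lay below the filter. Il2rb read 6.26, 3.25 and 3.00 in labelled tumorigenic mice 1, 2 and 3, against 3.29 to 3.36 under the nontumorigenic label. Without the tumorigenic-labelled array of mouse 1, in which the T and NK cell markers also read highest, the Il7r difference of 2.09 became 0.92 and the Il2rb difference of 0.83 turned to -0.21. The interferon and interleukin-10 receptors had a median of 0.29 over 6 genes, or 0.02 without the same array, with Il10rb at 1.09 (0.48 without that array), Ifnar2 at 0.59 (0.22 without it) and Il10ra at 0.43 (0.22 without labelled tumorigenic mouse 2). Probe sets ran from -0.16 to 2.04 for Il10ra, from 0 to 1.09 for Il10rb and from 0.59 to 1.02 for Ifnar2. Ligands were evenly divided, with 6 positive and 6 negative differences and a median of 0.06. The 3 with the smallest p were dim under the nontumorigenic label. Il7 averaged 2.84 there, below the filter, so that it passed only through the labelled tumorigenic arrays, and Il10 and Osm averaged 3.20 and 3.36. Il10 read 7.35, 4.90 and 2.93 in labelled tumorigenic mice 1, 2 and 3, and its difference of 1.86 became 0.72 without mouse 1 there. That of Osm was 0.90, or 0.36 without the same array.

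The other Jak kinases and Stat factors tested were 3 genes, all with positive differences and a median of 0.82. Jak3, the kinase of common gamma chain receptors in lymphocytes, read 6.21, 5.42 and 5.09 under the tumorigenic label, against 5.14, 3.56 and 4.23 under the nontumorigenic label, a difference of 1.26 (SE 0.48, limma adjusted p = 0.557). Stat2, a factor of type I interferon signalling, differed by 0.82 (0.54 without labelled nontumorigenic mouse 2) and Tyk2 by 0.46 (0.24 without labelled tumorigenic mouse 1). Dimmer probe sets gave 0 for Stat2 and 0.06 for Tyk2. The 4 other Socs genes had a median of 0.06, or -0.02 with mouse 3 left out of the tumorigenic label, and the Socs4 probe sets differed in sign. Without 1 array, Socs4 ran from -0.70 to -0.11, Socs5 from 0.02 to 0.44 and Socs6 from -0.25 to 0.41. Among 9 Pias proteins and phosphatases the median was 0.23, or 0.14 with mouse 1 left out of the tumorigenic label, and 7 were positive. The leukocyte phosphatase Ptpn6 differed by 0.65 (0.24 without labelled tumorigenic mouse 1) and Ptpn1 by 0.42 (0.15 without labelled nontumorigenic mouse 1), while Ptpn2, which removes phosphate from Jak and Stat proteins, differed by -0.26 (-0.14 without labelled nontumorigenic mouse 3) with its 4 probe sets all negative. The Ptpn1 probe sets differed in sign, at 0.42 and -0.06.

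**Figure D4:**
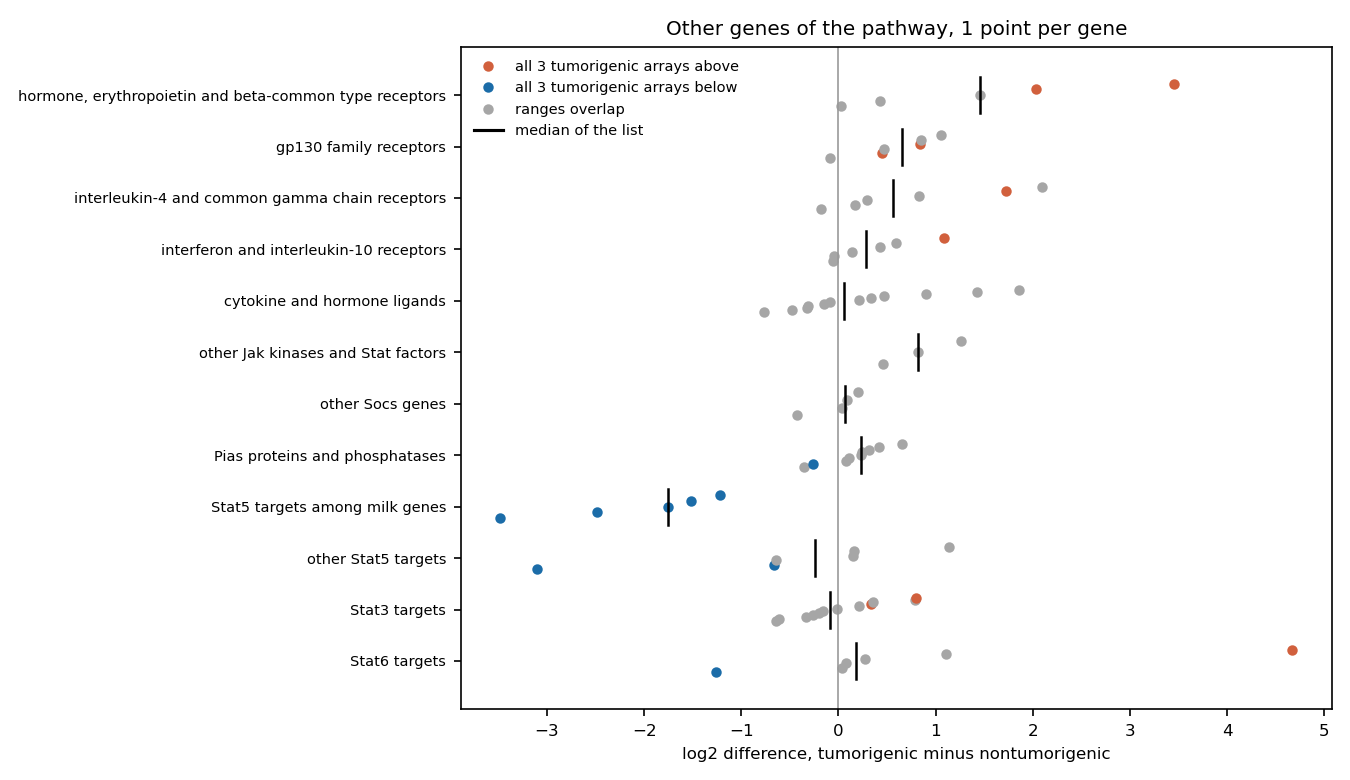
Log2 differences, tumorigenic minus nontumorigenic, of the 80 other pathway genes, with 1 point per gene and 1 row per list. Orange points have all 3 labelled tumorigenic arrays above the others, blue points have all 3 below, grey points overlap, and black bars are medians. The milk genes lie between -3.48 and -1.22.

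Targets of Stat5 in milk read lower under the tumorigenic label, as did Stat5a and the luminal markers given above. The part of either in the milk gene values was not tested. All 5 milk genes that passed the filter, of 6 listed, had populations that did not overlap, with the tumorigenic label below, against 5.59% of all genes, and their median difference was -1.75, or -1.60 to -2.02 without 1 labelled tumorigenic array. Csn2, the beta-casein gene, read 11.46, 10.24 and 11.18 in labelled tumorigenic mice 1, 2 and 3, against 12.61, 12.10 and 11.83 in the other population, a difference of -1.22 (limma adjusted p = 0.50). Csn3 differed by -1.75 (limma adjusted p = 0.247) and Csn1s1 by -3.48 (limma adjusted p = 0.449). None of the 5 passed the threshold. The labelled tumorigenic array of mouse 2 was the lowest of the 6 for Csn2, for Csn1s1, at 4.67, and for Csn1s2a, at 9.18, as it was for Stat5a. For Csn3 it was lowest by little, at 10.40 against 10.45 in labelled tumorigenic mouse 1. Wap went otherwise, with labelled tumorigenic mouse 3 lowest, at 5.25 against 5.64 in mouse 2. The labelled tumorigenic array of mouse 2 also has the highest Gapdh ratio of 3' to 5' signal, whose part in these values was not tested.

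Elf5, a luminal transcription factor downstream of prolactin and an activator of milk genes, read 4.86, 6.17 and 6.91 in labelled tumorigenic mice 1, 2 and 3, against 9.32, 8.90 and 9.01 under the nontumorigenic label. All labelled tumorigenic arrays were below the others, at a difference of -3.10 (SE 0.51, limma adjusted p = 0.247), and the order of the mice was not that of Stat5a. The luminal markers also read lower in these arrays, and their part in the Elf5 values was not tested. Ccnd1, which encodes cyclin D1, read 10.25, 9.80 and 10.18 under the tumorigenic label, against 10.99, 10.46 and 10.75 under the nontumorigenic label, a difference of -0.66 (limma adjusted p = 0.522), with all 3 probe sets negative. Igf1 differed by 1.14, or 0.55 without the tumorigenic-labelled array of mouse 2 and 2.02 without that of mouse 3. The 6 other Stat5 targets had 3 positive and 3 negative differences and a median of -0.24, so the lower values were not shared by the list. With mouse 2 left out of the tumorigenic label, 1 was positive and 5 negative.

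**Figure D5:**
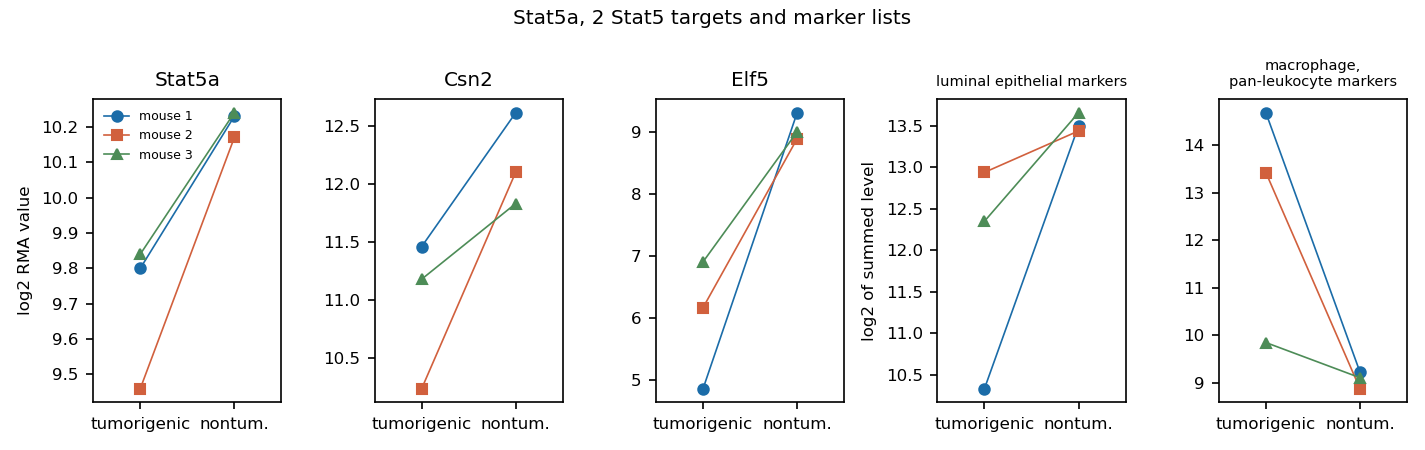
Log2 RMA values of Stat5a, Csn2 and Elf5 in every array, and the log2 of the summed level of the luminal and the leukocyte marker lists, each on its own axis that does not start at 0. Labelled tumorigenic arrays are at the left and labelled nontumorigenic ones (nontum.) at the right, joined within a mouse. All 3 genes and the luminal markers lie lower in every labelled tumorigenic array, and the leukocyte markers higher.

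Stat3 targets showed no common direction, with 5 positive and 7 negative differences among 12 and a median of -0.09, or 0.11 with mouse 1 left out of the tumorigenic label. Junb, an immediate early factor, read 8.28, 8.11 and 8.18 in labelled tumorigenic mice 1, 2 and 3, against 7.89, 7.88 and 7.83 under the nontumorigenic label, a difference of 0.33 (limma adjusted p = 0.604). Bcl3, a partner of NF-kappaB, differed by 0.80, or 0.42 without the tumorigenic-labelled array of mouse 2. The protease inhibitor Timp1 differed by 0.79, or 0.35 without the same array, and was negative in mouse 3, at -0.45. Among 6 Stat6 targets the median was 0.18 and 5 were positive, or 3 with mouse 2 left out of the tumorigenic label. Mrc1, a receptor of macrophages, differed by 4.67 (limma adjusted p = 0.284). Arg1, the arginase of alternatively activated macrophages, went the other way: it read 3.51, 4.24 and 3.95 under the tumorigenic label, against 4.98, 5.19 and 5.31 under the nontumorigenic label, a difference of -1.26 (SE 0.23, limma adjusted p = 0.258). Retnla differed by 1.11, or 0.26 without the tumorigenic-labelled array of mouse 1.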

How the data were processed

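Gene expression was measured on Affymetrix arrays, 1 per sorted population and mouse. The authors deposited RMA-normalised values, per the submitters' processing notes, on a scale that the values show to be log2. The RMA version was not given in the sources used here. RMA brings all arrays to 1 distribution, which hides any shift common to most genes. Of 45101 probe sets, 64 controls entered no test, 34945 had 1 symbol, 932 several and 9160 none; 34741 matched RefSeq by Entrez identifier with 0 symbols changed.

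The 25% of probe sets with the lowest means (below log2 2.98) were left out. Populations were compared by limma 3.58.1 in R 4.3.3 (lmFit, eBayes, no covariate) on 15027 genes, with two-sided p-values adjusted by Benjamini-Hochberg at 0.05. With 3 arrays against 3 an exact permutation test cannot go below 0.1 and was not used. Differences are tumorigenic minus nontumorigenic. The scripts were tested on simulated data. Arrays have no read depth, and their number limits precision. Both populations come from the same mice, so mouse numbers pair the arrays: deviations of same-mouse arrays correlated at 0.079, 0.136 and 0.086, against -0.083 to -0.010 between mice. Members, lists and tests were chosen with earlier results of these data known. Named genes were all members, up to 3 genes per pathway list with the smallest p, and the 3 genes nearest in pattern to Stat5a, Cish, Socs2 and Socs3. Il21r and Il15ra were named besides, as further lymphocyte receptors of their list, and Csn1s2a and Wap as further milk genes. Sort gate genes were named too, as were Adgre1, Gzmb and Adipoq, markers whose nontumorigenic-label mean lay below the filter. Alternatives were the mouse as a block, other filters, normalisations, priors, weights and probe set rules, and leaving out each array or mouse.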

Additional observations from a re-analysis of the deposited data

How the results depend on the processing

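Members past the adjusted threshold stayed at 0 under all 18 alternatives tried. Genes past it over the whole table numbered 0 with the mouse as a replicate block (smallest limma adjusted p of a member 0.508), 1, Ramp2, with no filter on dim probe sets, 1, Ramp2 again, with probe sets of a gene averaged, and 0 to 18 when 1 array or mouse was left out, the 18 without mouse 3 under the tumorigenic label. The block changed no call. Stat3, Stat5a, Stat6 and Socs3 kept their direction under all alternatives: Stat5a ran from -0.585 to -0.393 (adjusted p 0.247 to 0.958), Socs3 from 0.086 to 0.395, and with an array or mouse left out Stat3 ran from -0.448 to -0.171 and Stat6 from 0.15 to 0.547. Jak2 turned to 0.006 with array weights and to 0.172 with the mean of the probe sets, and Socs2 to 0.144 and 0.429. With an array or mouse left out, Jak1 ran from -0.023 to 0.418, Jak2 from -0.255 to 0.167, Stat5b from -0.061 to 0.291, Socs2 from -0.368 to 0.556 and Cish from -0.124 to 0.591. The cause was not tested. With mouse 1, 2 or 3 left out of the tumorigenic label, an alternative added after seeing the data, 4, 4 and 7 of the 9 members were positive. Socs1, near the filter, is limited by its signal.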

Other observations

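Exact ties between arrays occurred in the deposited values of 7 of the 26 member probe sets, 26.9%, against 37.0% of all probe sets. The third Jak1 probe set read 7.73, 7.17 and 6.54 in labelled tumorigenic mice 1, 2 and 3, against 6.97 in each of the arrays labelled nontumorigenic, where mice 1 and 3 had exactly the same value.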
